A study of Mus musculus with 12 samples.

Results

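Whole liver RNA sequencing was examined here for 52 genes of the chemokine, interleukin, tumor necrosis factor (TNF) and colony stimulating factor families. They were found in the count table by symbol, through their Ensembl gene IDs, among 54232 gene IDs in all. The list holds 16 CC chemokines, 11 CXC and CX3C chemokines, 4 chemokine receptors, 5 TNF family ligands, 5 genes of the interleukin 1 family, 8 other interleukins and 3 colony stimulating factors. Levels were compared between 7 liver libraries from alcohol-fed (AF) and 5 from pair-fed (PF) male C57BL6/J mice. The mice belong to an intragastric model of alcohol-associated steatohepatitis (ASH), and the labels give an age of 8 weeks. AF mice received a liquid diet high in fat with ethanol at up to 27 g/kg/day for 8 weeks, with a weekly ethanol binge of 5 g/kg. PF mice received an isocaloric liquid diet high in fat without ethanol over the same 8 weeks. The study's methods also describe a solid Western diet or chow before the infusions and solid Western diet beside them. The labels name no engineered allele for any mouse, and no group was fed an ordinary diet alone. The comparison asks which inflammatory mediators differ in the liver at the end of the alcohol regimen.

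Chemokines are small secreted proteins that bind G protein-coupled receptors on leukocytes and direct their movement. The CC class mainly attracts monocytes, macrophages and lymphocytes. Among the CXC chemokines some attract neutrophils through CXCR2, some attract T and NK cells through CXCR3, and others act through further receptors. TNF and interleukin 1 start inflammatory signalling through NF-kB in most cell types, the interleukin 1 receptor antagonist blocks the latter, and interleukins 10 and 27 can limit inflammation. In the liver, Kupffer cells (the resident macrophages), recruited monocytes, stellate cells, endothelium and hepatocytes are all known sources. In alcohol-associated liver disease, endotoxin from the gut is known to reach Kupffer cells and to induce TNF and chemokines there.

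Between 24129900 and 28594027 reads were counted on genes in a PF library and between 25099033 and 30578639 in an AF library. Levels are given as CPM, the counts divided by a library's total after scaling with edgeR's TMM factors, which were 0.832 to 0.901 in PF and 0.880 to 1.36 in AF livers. Hepatocyte markers such as Alb were present in every library. PF replicate 1 stood apart in neutrophil markers, which summed to 1017 CPM there and to between 52.7 and 220 CPM in the other PF livers, so the CXCR2 ligands and the receptors Ccr1, Cxcr2 and Cxcr4 are also given without it. In whole tissue, more cells of a type and more RNA per cell cannot be told apart. The labels do not state that each library came from a separate mouse, and the p-values measure the spread between these libraries.

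Of the 52 genes, 39 had enough reads to be tested with edgeR, 16 rose in AF livers and 2 fell (adjusted p under 0.05 over all genes tested), while 21 did not pass the threshold. The filter asks for reads in only as many libraries as the smaller group holds. For example, Ccl3, Ccl4, Cxcl2 and Tnf, with 29 to 44 reads each over the PF libraries, passed it through their AF reads. Such members, and other genes like them, enter the counts, shares and medians that follow. Among all 14168 genes tested, 22% rose and 17.8% fell. The 16 that rose are 41% of the members tested. With library totals in place of TMM factors the shares lay closer together, with 20 of 39 members (51.3%) and 45.5% of all genes higher, and 9 to 18 members rose when a single library was left out (9 without PF replicate 2, 10 without PF replicate 1 or AF replicate 1 or 3). The median log2 fold change was 0.48 over the 39 members and 0.04 over all genes tested. The genes that rose encode macrophage and monocyte chemokines (Ccl3, Ccl4, Ccl6, Ccl7, Cx3cl1), Cxcl2, Cxcl10, Cxcl16, their receptors Ccr1 and Cxcr3, the ligands Tnf and Tnfsf13b, Il1a and its antagonist Il1rn, and Il34 and Csf1, the growth factors of macrophages. Il18 and Cxcl12 fell. Every AF liver lay above every PF liver for 5 members (Ccl4, Ccl6, Cxcl2, Tnf and Il1rn), against 8.2% of all genes tested. Every AF liver lay below every PF liver for Il18, against 9.49% of all genes tested. The CPM summed over all 52 genes was 760 ± 93.1 (SD, n = 5) in PF and 779 ± 103 (SD, n = 7) in AF livers. Cxcl12, Cxcl1 and Ccl9, the members with the most reads, were not among those that rose. Ccl6, the next in order with 24285 reads against 26257 for Cxcl1, did rise.

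**Figure D1:**
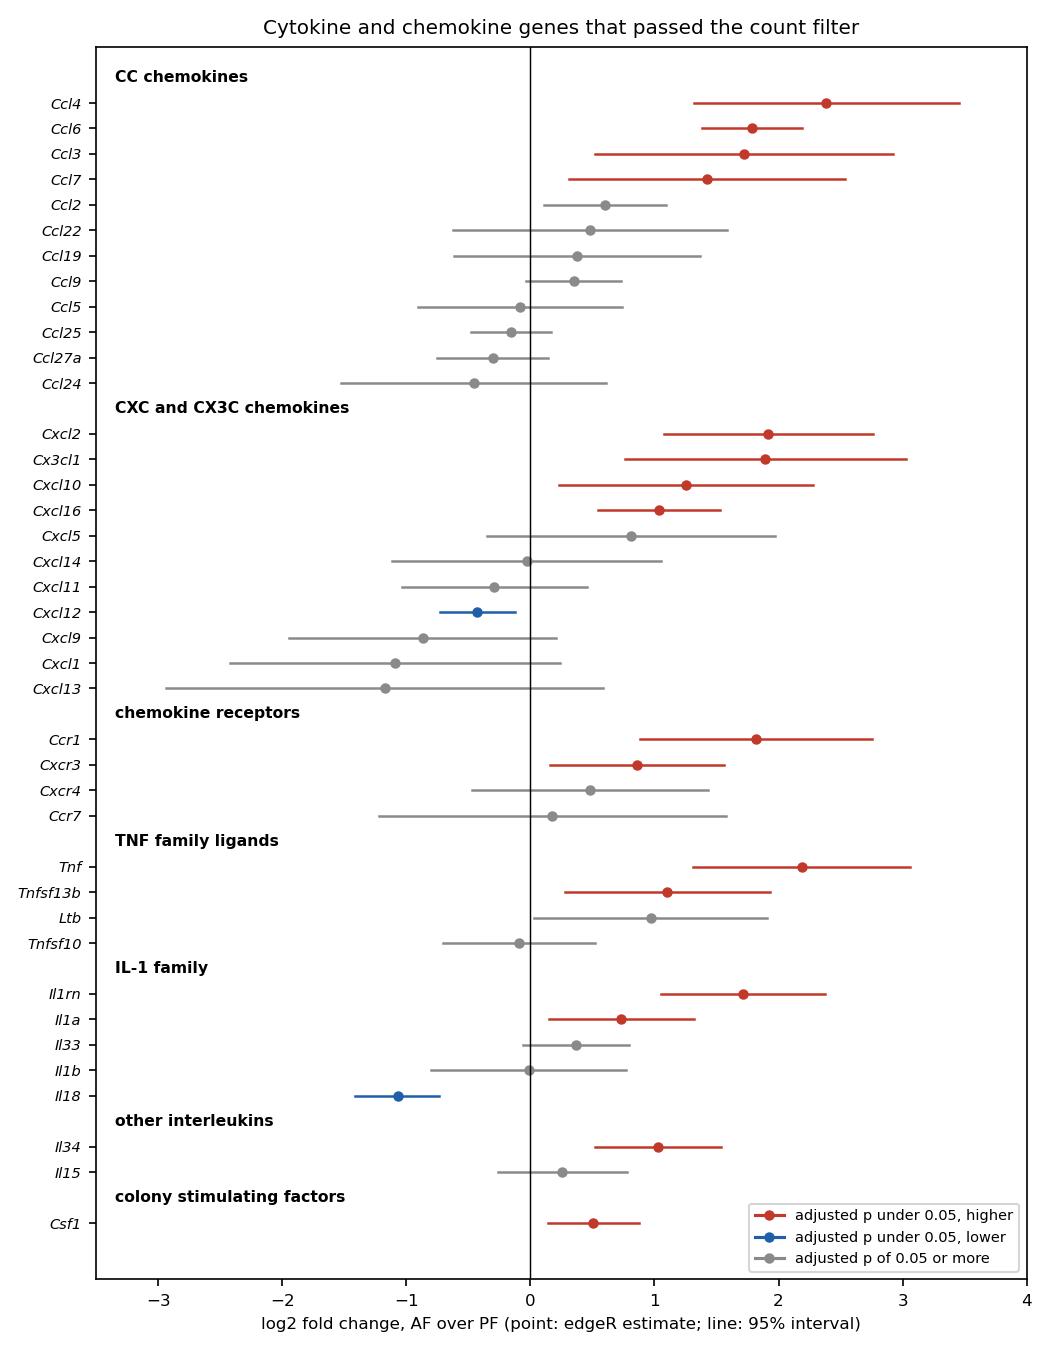
Log2 fold change of AF over PF livers (horizontal axis) for the 39 members that were tested, grouped by family, where points are edgeR estimates and lines 95% intervals. The 16 genes in red rose, the 2 in blue (Il18 and Cxcl12) fell, and the grey ones did not pass the adjusted p threshold of 0.05.

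Among the CC chemokines, 12 of 16 could be tested, and 4 rose (Ccl3, Ccl4, Ccl6 and Ccl7) while none fell. Ccl4 (ENSMUSG00000018930, chromosome 11, 83662584 to 83664683 in GRCm38), a chemokine made by activated macrophages, had 0.393, 0.0457, 0.167, 0.275 and 0.407 CPM in the PF livers and from 0.422 to 2.31 CPM (median 1.41) in the AF livers. All 7 AF livers lay above the PF livers, though the lowest AF value was close to the highest PF value. Ccl4 rose by 2.39 on the log2 scale (standard error 0.50, edgeR adjusted p = 0.00267). Ccl6 (ENSMUSG00000018927, chromosome 11, 83587882 to 83593087), a macrophage chemokine of rodents that binds CCR1, was far more abundant. It had 30.7, 24.4, 28.4, 25.4 and 30.9 CPM in the PF livers and from 66.3 to 135 CPM (median 83.8) in the AF livers. The groups were separated by a wide gap, and the PF livers differed little among themselves. Ccl6 rose 3.45-fold, or by 1.79 on the log2 scale (standard error 0.19, edgeR adjusted p = 2.74e-05).

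Ccl3, a neighbour of Ccl4 on chromosome 11 (ENSMUSG00000000982, 83647844 to 83649355) that binds CCR1, had 0.295, 0.0914, 0.167, 0.629 and 0.723 CPM in PF and from 0.281 to 2.22 CPM (median 1.15) in AF livers. The lowest AF liver, replicate 7, lay inside the PF range. Ccl3 rose by 1.72 on the log2 scale (standard error 0.56, edgeR adjusted p = 0.0259), and the call was lost without PF replicate 1, 2 or 3 or AF replicate 3 (edgeR adjusted p from 0.0502 to 0.0654). Ccl7, a ligand of CCR2 that mobilizes monocytes (ENSMUSG00000035373, chromosome 11, 82045712 to 82047525), had 0.934, 0.0457, 0.750, 0.982 and 1.04 CPM in PF and from 0.826 to 3.16 CPM (median 1.82) in AF livers. PF replicate 2 was far below the other PF livers, and the lowest AF livers lay within the PF range. Ccl7 rose by 1.42 on the log2 scale (standard error 0.52, edgeR adjusted p = 0.0426), and leaving out any of the 5 PF libraries or AF replicate 1, 2, 3 or 4 ended the call (edgeR adjusted p from 0.0510 to 0.0795).

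Ccl2, the main monocyte chemoattractant (ENSMUSG00000035385, chromosome 11, 82035571 to 82037453), had 5.80, 3.61, 6.04, 5.501 and 5.02 CPM in PF and from 4.44 to 11.8 CPM (median 7.68) in AF livers. Some AF livers lay within the PF range, and AF replicate 6 was the highest. Its log2 fold change of 0.60 (standard error 0.23) narrowly missed the threshold (edgeR adjusted p = 0.0516). With DESeq2 it passed, with a DESeq2 adjusted p of 0.0449, and it also passed in edgeR with library totals (0.94, edgeR adjusted p = 0.00609) and without AF replicate 5 or 7 (edgeR adjusted p from 0.0159 to 0.0356). Ccl9, another CCR1 ligand of myeloid cells, averaged 104 CPM in PF and 132 CPM in AF livers and did not pass the threshold (0.35 on the log2 scale, edgeR adjusted p = 0.131), which it did without AF replicate 6 (0.43, edgeR adjusted p = 0.0355) and with library totals (0.72, edgeR adjusted p = 0.0145). For the remaining 6 CC chemokines tested, log2 fold changes ranged from -0.46 for Ccl24, which attracts eosinophils, to 0.48 for Ccl22, which attracts regulatory T cells. Ccl24 was -0.97 without AF replicate 7 (edgeR adjusted p = 0.0663). Ccl22 was 1.09 without PF replicate 5 and 0.18 without PF replicate 3 (edgeR adjusted p = 0.113 and 0.771). Ccl5, the chemokine of T and NK cells, had a log2 fold change of -0.08 with a 95% interval from -0.91 to 0.74. Its highest value of any liver, 3.80 CPM, was in PF replicate 5, the liver with the highest sums of T cell markers (12.8 CPM) and B cell markers (6.38 CPM).

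The 11 CXC and CX3C chemokines were all tested. Cxcl2, Cx3cl1, Cxcl10 and Cxcl16 rose, Cxcl12 fell, and the median log2 fold change of the class was -0.03. Of the 3 ligands of CXCR2, the receptor that draws neutrophils, Cxcl2 rose and Cxcl1 and Cxcl5 did not pass the threshold. Cxcl2 (ENSMUSG00000058427, chromosome 5, 90903871 to 90905938) had 0.541, 0.503, 0.208, 0.236 and 0.181 CPM in PF and from 0.562 to 1.91 CPM (median 1.25) in AF livers, with every AF liver above every PF liver. It rose by 1.92 on the log2 scale (standard error 0.39, edgeR adjusted p = 0.00239) and by 2.15 without PF replicate 1 (edgeR adjusted p = 0.00316).

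Cxcl1 (ENSMUSG00000029380, chromosome 5, 90891241 to 90893115), the neighbour of Cxcl2, with 67.5 CPM per kb of exon in PF livers against 0.161 for Cxcl2, was the more abundant of the pair. It had 156, 246, 49.5, 51.4 and 130 CPM in PF and from 10.8 to 175 CPM (median 41.5) in AF livers. Values spread widely within both groups and overlapped. Its log2 fold change of -1.09 (standard error 0.62, 95% interval from -2.43 to 0.24) did not pass the threshold (edgeR adjusted p = 0.174), nor without PF replicate 1 (-1.01, edgeR adjusted p = 0.259). Without AF replicate 6, which held the highest AF value, Cxcl1 passed it as lower (-1.66, edgeR adjusted p = 0.0264). Cxcl5 had a log2 fold change of 0.81 (edgeR adjusted p = 0.243), and of 0.63 without PF replicate 1 (edgeR adjusted p = 0.404). Markers of neutrophils, which Cxcl1, Cxcl2 and Cxcl5 attract, did not pass the threshold in either direction (0 of 7, median log2 fold change -1.51). Without PF replicate 1 the median was -0.14, again with 0 of 7 past the threshold, and they summed to between 28.1 and 187 CPM in AF livers and 52.7 and 220 CPM in the other PF livers.

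The ligands of CXCR3, which are induced by interferon and attract T and NK cells, included Cxcl10, which rose, and Cxcl9 and Cxcl11, which did not pass the threshold. Cxcl10 (ENSMUSG00000034855, chromosome 5, 92346638 to 92348889) had 1.72, 2.88, 1.83, 3.07 and 8.82 CPM in PF and from 2.79 to 14.5 CPM (median 6.81) in AF livers. PF replicate 5 stood far above the other PF livers and above several AF livers. Cxcl10 rose by 1.26 on the log2 scale (standard error 0.47, edgeR adjusted p = 0.0497). The estimate was 1.87 without PF replicate 5 (edgeR adjusted p = 0.00677), and the call was lost without PF replicate 1, 2, 3 or 4 or AF replicate 1, 2, 3, 4 or 7 (edgeR adjusted p from 0.0534 to 0.112). It was also lost with RLE, limma-voom and the looser filter (adjusted p from 0.0508 to 0.0641). Its exons overlap those of Art3 on the opposite strand. Cxcl9 averaged 30.8 ± 29.7 (SD, n = 5) CPM in PF and 16.9 ± 8.10 (SD, n = 7) CPM in AF livers. The difference of -0.87 on the log2 scale (edgeR adjusted p = 0.179) became -0.12 without PF replicate 5. Cxcl11 had a log2 fold change of -0.29 (edgeR adjusted p = 0.529). It is annotated as a polymorphic pseudogene, and its exons overlap those of Gm2673 on the opposite strand.

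Cx3cl1, the membrane-bound ligand of CX3CR1 on monocytes and macrophages (ENSMUSG00000031778, chromosome 8, 94772009 to 94782427), had 0.689, 0.457, 1.04, 1.26 and 1.13 CPM in PF and from 1.23 to 9.84 CPM (median 2.79) in AF livers. AF replicate 1 alone held the highest value, and 6 of 7 AF livers lay above the PF livers. Cx3cl1 rose by 1.90 on the log2 scale (standard error 0.53, edgeR adjusted p = 0.0125) and by 1.35 without AF replicate 1 (edgeR adjusted p = 0.0127). AF replicate 1 was also the liver with the highest sum of bile duct markers, at 1089 CPM against 70.2 to 744 CPM in the other AF livers and 49.5 to 243 CPM in PF livers. Most of these sums is Spp1 (1048 CPM in AF replicate 1), which did not pass the threshold. The other 4 markers, which rose, summed to 41.5 CPM in AF replicate 1, 4.95 to 24.8 CPM in the other AF livers and 3.16 to 4.96 CPM in PF livers, and the part of these cells in the level of Cx3cl1 was not tested. Cxcl16 (ENSMUSG00000018920, chromosome 11, 70453983 to 70459984), a scavenger receptor and the ligand of CXCR6, had 9.64, 13.2, 14.5, 16.5 and 23.6 CPM in PF and from 21.9 to 46.1 CPM (median 29.8) in AF livers. Apart from AF replicate 6, all AF livers lay above PF replicate 5, the highest of the PF livers. Cxcl16 rose by 1.04 on the log2 scale (standard error 0.23, edgeR adjusted p = 0.00363), and its exons overlap those of Zmynd15 on the opposite strand.

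Cxcl12, which holds leukocytes and progenitor cells in tissue through CXCR4 (ENSMUSG00000061353, chromosome 6, 117168535 to 117181367), was the member with the most reads. It had 230, 309, 286, 302 and 245 CPM in PF and from 162 to 281 CPM (median 190) in AF livers. In 6 of 7 AF livers the value was below that of every PF liver, and AF replicate 2 lay among the PF livers. Cxcl12 fell by 0.43 on the log2 scale (standard error 0.14, edgeR adjusted p = 0.0289). The call was lost without PF replicate 2, 3 or 4 or AF replicate 1, 3 or 4 (edgeR adjusted p from 0.0540 to 0.0737), and with library totals in place of TMM factors the estimate was -0.08 (edgeR adjusted p = 0.619). The remaining class members, Cxcl13 and Cxcl14, had log2 fold changes of -1.17 and -0.03. Cxcl13, the B cell chemokine, ranged from 5.21 to 105 CPM in PF and from 0.984 to 35.1 CPM in AF livers, and its estimate was -0.24 without PF replicate 5 (edgeR adjusted p = 0.835).

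Promoters of 4 of these genes are printed here for their NF-kB matches: Cxcl1 and Cxcl2 as neighbours that share the matched letters, Cxcl10 for having the most matches, and Ccr1 as a receptor. They were chosen after their values were seen. They are RefSeq sequences of 300 bases in GRCm38.p6, from 250 bases before to 50 bases after a gene's start, and 38 of the 52 members had at least 1 such promoter (46 promoters). Motifs were searched on both strands and are set in capitals. They are the NF-kB consensus (by name), the AP-1 motif TGANTCA and the interferon-stimulated response element GAAANNGAAA. Cxcl1 lies at chr5:90890995-90891294 and Cxcl2 at chr5:90903649-90903948, both on the plus strand. Cxcl10 lies at chr5:92348840-92349139 and Ccr1 at chr9:123968643-123968942, both on the minus strand.
Cxcl1: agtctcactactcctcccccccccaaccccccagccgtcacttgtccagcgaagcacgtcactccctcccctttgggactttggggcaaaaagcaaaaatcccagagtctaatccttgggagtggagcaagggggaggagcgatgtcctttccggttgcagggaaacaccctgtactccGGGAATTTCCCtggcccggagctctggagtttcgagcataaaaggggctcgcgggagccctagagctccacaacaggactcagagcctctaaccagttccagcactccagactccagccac
Cxcl2: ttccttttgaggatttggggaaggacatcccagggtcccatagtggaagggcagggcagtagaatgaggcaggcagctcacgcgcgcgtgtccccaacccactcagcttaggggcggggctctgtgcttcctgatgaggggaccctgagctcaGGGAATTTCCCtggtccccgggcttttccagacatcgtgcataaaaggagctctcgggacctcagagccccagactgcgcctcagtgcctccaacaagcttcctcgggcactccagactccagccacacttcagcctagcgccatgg
Cxcl10: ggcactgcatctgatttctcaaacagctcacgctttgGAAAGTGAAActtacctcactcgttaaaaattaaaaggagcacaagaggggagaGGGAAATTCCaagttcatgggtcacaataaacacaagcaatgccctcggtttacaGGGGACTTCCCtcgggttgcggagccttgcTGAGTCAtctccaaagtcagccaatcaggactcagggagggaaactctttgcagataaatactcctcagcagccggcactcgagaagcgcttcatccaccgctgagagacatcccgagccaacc
Ccr1: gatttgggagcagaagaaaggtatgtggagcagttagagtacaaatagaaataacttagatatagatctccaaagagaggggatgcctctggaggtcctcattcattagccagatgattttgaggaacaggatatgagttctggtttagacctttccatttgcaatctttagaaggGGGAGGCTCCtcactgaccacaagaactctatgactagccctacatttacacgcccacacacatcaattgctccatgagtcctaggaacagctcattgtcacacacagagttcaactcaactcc

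In Cxcl1 and Cxcl2 the capitals are the same letters, where overlapping matches to the NF-kB consensus lie on opposite strands. With positions counted back from -1, the base before the start, they begin at -71 and -70 in Cxcl1 and at -97 and -96 in Cxcl2. The promoter of Cxcl10 holds NF-kB matches that begin at -159, -104 and -103, an AP-1 match at -74 and an interferon-stimulated response element at -213, and that of Ccr1 an NF-kB match at -74. The NF-kB consensus was found in 10 of the 46 promoters of members, and in 8.46% of all 32851 promoters of this length. For AP-1 the numbers were 10 of 46 and 7.81%, and for the interferon-stimulated response element 4 of 46 and 3.44%. Several members are related by descent and share sequence, a match is a description of letters, and no binding was measured. No match to these 3 motifs was found in the windows of Tnf, Ccl6 or Il18. Of the 10 members with an NF-kB match, 4 rose in AF livers (Cxcl2, Cxcl10, Ccr1 and Csf1), 4 did not pass the threshold (Cxcl1, Ccl9, Ccl27a and Ltb) and 2 had too few reads (Il6 and Ccl20). That is 4 of the 8 tested, beside 41% of all members tested, and the calls of Cxcl10 and Csf1 were lost when certain single libraries were left out.

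Among the 4 chemokine receptors, Ccr1 and Cxcr3 rose and Cxcr4 and Ccr7 did not pass the threshold. Ccr1, the receptor of Ccl3, Ccl6, Ccl7 and Ccl9 on myeloid cells (ENSMUSG00000025804, chromosome 9, 123962124 to 123968692), had 3.44, 0.777, 2.08, 1.22 and 2.22 CPM in PF and from 3.31 to 12.02 CPM (median 5.22) in AF livers. AF replicate 5 lay just below PF replicate 1, and the other 6 AF livers lay above all PF livers. Ccr1 rose by 1.82 on the log2 scale (standard error 0.43, edgeR adjusted p = 0.00570) and by 2.12 without PF replicate 1 (edgeR adjusted p = 0.00493). Cxcr3, carried by T and NK cells, averaged 0.443 CPM in PF and 0.807 CPM in AF livers, and its rise of 0.86 on the log2 scale was at the edge of the threshold (edgeR adjusted p = 0.0499). This call was lost without any of the 5 PF libraries and without AF replicate 1, 2, 3, 4 or 7 (edgeR adjusted p from 0.0521 to 0.114). With all libraries kept it was also lost with RLE, DESeq2, limma-voom and both other filters (adjusted p from 0.0519 to 0.0949). The summed T cell markers lay between 3.24 and 6.31 CPM in AF and between 6.30 and 12.8 CPM in PF livers. These sums include Cd4, which averaged 3.74 CPM in PF and 0.949 CPM in AF livers. Cd4 fell by 1.98 on the log2 scale (edgeR adjusted p = 3.97e-05). The other 5 T cell markers did not pass the threshold, with log2 fold changes from -0.44 for Cd3e to 0.39 for Lck. Cxcr4 had a log2 fold change of 0.48 (edgeR adjusted p = 0.403), and of 0.90 without PF replicate 1 (edgeR adjusted p = 0.123), in which it stood at 6.44 CPM. Without AF replicate 1 the estimate was 0.21 (edgeR adjusted p = 0.721).

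Of the TNF family ligands, 4 of 5 were tested and Tnf and Tnfsf13b rose. Tnf (ENSMUSG00000024401, chromosome 17, 35199381 to 35202007), the founding cytokine of the family, had 0.393, 0.137, 0.292, 0.393 and 0.678 CPM in PF and from 1.03 to 3.04 CPM (median 1.38) in AF livers. No AF liver lay within the PF range, and AF replicates 2 and 3 were the highest. Tnf rose by 2.19 on the log2 scale (standard error 0.41, edgeR adjusted p = 0.00138), or 4.55-fold, from 43 reads over the 5 PF libraries against 377 over the 7 AF libraries. Tnfsf13b, which encodes the B cell survival factor BAFF (ENSMUSG00000031497, chromosome 8, 10006467 to 10039072), had 1.18, 0.412, 0.541, 0.825 and 1.09 CPM in PF and from 0.773 to 2.98 CPM (median 1.72) in AF livers. The lowest AF livers, replicates 6 and 7, lay within the PF range. Tnfsf13b rose by 1.10 on the log2 scale (standard error 0.38, edgeR adjusted p = 0.0356), and the call was lost without PF replicate 2, 3 or 4 or AF replicate 1, 3, 4 or 5 (edgeR adjusted p from 0.0524 to 0.0877). Ltb, a subunit of the membrane lymphotoxin that shapes lymphoid tissue, had a log2 fold change of 0.97 (edgeR adjusted p = 0.0918), and passed the threshold without AF replicate 7 (1.12, edgeR adjusted p = 0.0358) and with library totals (1.39, edgeR adjusted p = 0.0342). Tnfsf10, which encodes the death ligand TRAIL, had a log2 fold change of -0.09 with a 95% interval from -0.70 to 0.52.

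In the interleukin 1 family, the antagonist and the alpha form rose, the beta form did not pass the threshold and Il18 fell. Il1rn, which encodes the receptor antagonist (ENSMUSG00000026981, chromosome 2, 24336853 to 24351494), had 19.2, 18.3, 27.6, 19.5 and 19.7 CPM in PF and from 31.4 to 125 CPM (median 49.0) in AF livers. All AF livers lay above all PF livers, with AF replicate 4 the highest. Il1rn rose by 1.71 on the log2 scale (standard error 0.31, edgeR adjusted p = 0.00115), or 3.28-fold. Il1a averaged 9.35 CPM in PF and 15.6 CPM in AF livers. It rose by 0.73 on the log2 scale (edgeR adjusted p = 0.0453), and the call was lost without PF replicate 1, 2 or 5 or without any AF replicate but the sixth (edgeR adjusted p from 0.0508 to 0.105).

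Il1b (ENSMUSG00000027398, chromosome 2, 129364570 to 129371139), the secreted product of activated macrophages and neutrophils, had 13.5, 8.00, 31.6, 18.4 and 15.2 CPM in PF and from 8.83 to 29.5 CPM (median 13.6) in AF livers. The ranges of the groups were nearly the same, and the log2 fold change was -0.01 with a 95% interval from -0.80 to 0.77 (edgeR adjusted p = 0.980). Il18 (ENSMUSG00000039217, chromosome 9, 50554827 to 50581840), which drives interferon gamma in NK and T cells and is stored as a precursor, had 20.7, 19.1, 16.8, 17.3 and 19.7 CPM in PF and from 5.41 to 11.6 CPM (median 9.32) in AF livers. The PF livers lay close together, the AF livers were more spread, and the groups did not overlap. Il18 fell by 1.07 on the log2 scale (standard error 0.16, edgeR adjusted p = 3.17e-04), so that PF livers held 2.10-fold more. Hepatocyte markers fell in the same livers (3 of 6 passed the threshold, median log2 fold change -1.11), with sums of 94960 to 140500 CPM in PF and 44400 to 100200 CPM in AF livers, and their part in the fall of Il18 was not tested. Il33, an alarmin of endothelial and stellate cells, had a log2 fold change of 0.37 (edgeR adjusted p = 0.152).

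**Figure D2:**
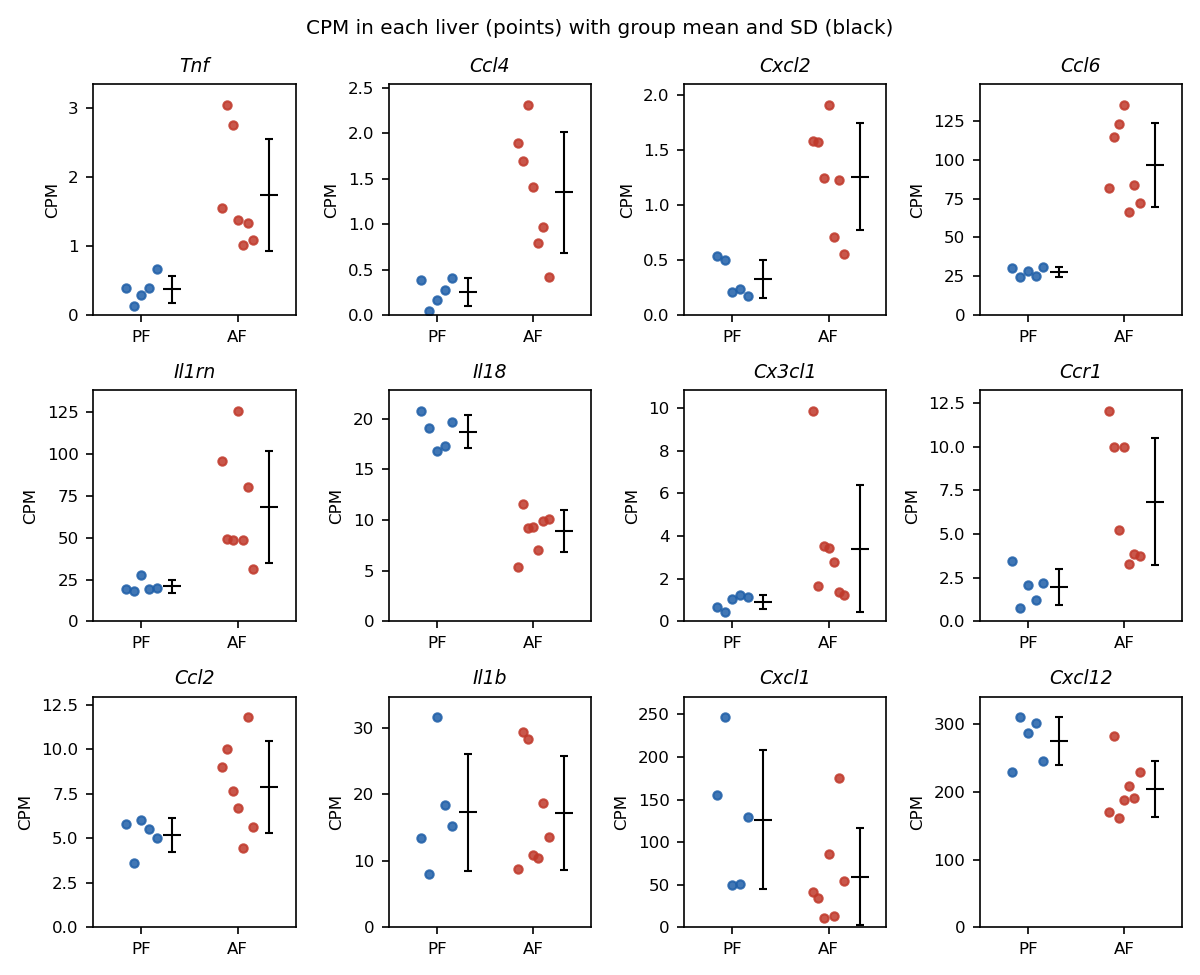
CPM (vertical axes, each from 0) of 12 members in each of the 5 PF livers (blue) and 7 AF livers (red), with the group mean and SD in black. For Tnf, Ccl4, Cxcl2, Ccl6, Il1rn and Il18 the groups do not overlap, whereas for Il1b and Cxcl1 they overlap broadly.

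Of the 8 other interleukins only Il15 and Il34 had enough reads to be tested. Il34 (ENSMUSG00000031750, chromosome 8, 110741829 to 110805924), a second ligand of the macrophage growth factor receptor CSF1R, averaged 1.44 CPM in PF and 2.96 CPM in AF livers. It ranged from 0.934 to 2.08 CPM in PF and from 1.94 to 3.99 CPM in AF livers, with 6 of 7 AF livers above the PF livers, and it rose by 1.03 on the log2 scale (standard error 0.24, edgeR adjusted p = 0.00459). Csf1, the first known ligand of that receptor, averaged 17.8 CPM in PF and 25.3 CPM in AF livers. PF replicate 3, at 27.4 CPM, lay within the AF range of 20.1 to 29.5 CPM, and Csf1 rose by 0.51 on the log2 scale (standard error 0.17, edgeR adjusted p = 0.0310), with the call lost without PF replicate 1, 2 or 5 or AF replicate 1 or 2 (edgeR adjusted p from 0.0546 to 0.0820). Il15, which maintains NK cells, had a log2 fold change of 0.26 (edgeR adjusted p = 0.415), and it passed the threshold without AF replicate 6 (0.39, edgeR adjusted p = 0.0454), its lowest liver.

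The other 13 members had too few reads to be tested with the rest. Csf3, which encodes G-CSF, had 0 reads in all 12 libraries, which allows up to 0.0264 CPM over the PF group and 0.0136 CPM over the AF group (3 counts, 95%, counting error only). Csf2, which encodes GM-CSF, had 0 reads in PF and 5 in AF, with 1 read in each of 5 livers. Il17a had 2 reads in PF and 1 in AF, and Il12a 3 in each. Il6 had 0.197, 0.137, 0.250, 0.0786 and 0.136 CPM in PF and from 0.0304 to 0.246 CPM (median 0.0855) in AF livers. These are 18 and 24 reads, and the ratio of AF to PF was 0.690 with an exact 95% counting interval from 0.359 to 1.35. For Il6, the inducer of the acute phase response, this interval includes no difference, and it covers counting error only. Il10, an inhibitor of macrophage activation, had 12 reads in PF and 55 in AF, a ratio of 2.37 with a counting interval from 1.25 to 4.86. Its PF values lay between 0.0786 and 0.136 CPM, and 5 of the 7 AF livers were above them. In a fit without the filter on low counts its edgeR adjusted p was 0.0864. Il27, with 9 and 40 reads, had a ratio of 2.30 and an adjusted p of 0.182 in the same edgeR fit, and its exons overlap those of Apobr on the opposite strand. Ccl8 had 62 reads in PF and 54 in AF, a ratio of 0.45 with a counting interval from 0.307 to 0.66. PF replicate 5 alone stood at 2.08 CPM against 0.0984 to 0.314 CPM in the other PF livers. In the fit without the filter the log2 fold change of Ccl8 was -1.11 (edgeR adjusted p = 0.337). For Ccl12, Ccl17, Ccl20, Lta and Il12b the counting intervals of the ratio all included no difference.

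The receptors of these mediators were read from a list of 50 other genes, of which 40 were tested, 12 rose (30% of those tested, against 22% of all genes) and 4 fell (10%, against 17.8%), with a median log2 fold change of 0.26. With library totals 20 receptors rose (50%, against 45.5% of all genes) and 3 fell (7.5%, against 6.63%). Of the 5 receptor chains for colony stimulating factors 4 rose, among them Csf2rb2 (1.31, edgeR adjusted p = 6.81e-04) and Csf2ra (1.16, edgeR adjusted p = 0.00644), chains of the receptors for interleukin 3 and GM-CSF. Of 11 chemokine receptors tested outside the members 4 rose, with Ackr3, which scavenges Cxcl12 (2.38, edgeR adjusted p = 0.00805), and Cx3cr1 (2.31, edgeR adjusted p = 0.00477) the furthest. The interleukin receptors and decoys were split, with 3 of 18 higher and 4 lower, and Il12rb1 fell by 1.48 on the log2 scale (edgeR adjusted p = 0.00979). Among 6 TNF family receptors tested only Tnfrsf10b, the TRAIL receptor, rose (2.56, edgeR adjusted p = 0.0106).

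Ligands and receptors were then set side by side in pairs, which were chosen after their values were seen. Both the ligands Csf1 and Il34 and their receptor Csf1r (0.79 on the log2 scale, edgeR adjusted p = 0.0102) rose. The same holds for Cx3cl1 and Cx3cr1 and for Ccl3 and Ccl6 with Ccr1, whose ligand Ccl9 did not pass the threshold. Cxcl10 and Cxcr3 rose, while the other ligands Cxcl9 and Cxcl11 did not pass. In other pairs the receptor did not pass the threshold although a ligand rose. Tnf rose, while Tnfrsf1a and Tnfrsf1b had log2 fold changes of 0.12 and 0.10 (edgeR adjusted p = 0.548 and 0.601). Cxcl2 rose with Cxcr2 at 0.04 (0.24 without PF replicate 1, edgeR adjusted p = 0.517), Ccl7 with Ccr2 at 0.46 (edgeR adjusted p = 0.266) and Cxcl16 with Cxcr6 at -0.04 on the log2 scale. In the interleukin 1 system the ligand Il1a and the antagonist Il1rn rose, while their receptor Il1r1 did not pass the threshold (-0.59, edgeR adjusted p = 0.321). Il1r1 was below every PF liver in 6 of 7 AF livers, and AF replicate 6 was the highest at 272 CPM. Il1rap, the accessory chain that the receptors of interleukins 1 and 33 need for signalling, fell by 1.07 (edgeR adjusted p = 0.00529). Il18 fell while Il18bp, its soluble inhibitor, rose by 0.80 (edgeR adjusted p = 0.00367). Il15ra, which presents interleukin 15, fell by 0.96 (edgeR adjusted p = 0.00639) with Il15 not past the threshold. Il10rb rose by 1.13 (edgeR adjusted p = 5.39e-04) and Il10ra by 0.87 (edgeR adjusted p = 0.00710), and Il6ra, the interleukin 6 receptor of hepatocytes, fell by 0.76 (edgeR adjusted p = 0.0210).

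**Figure D3:**
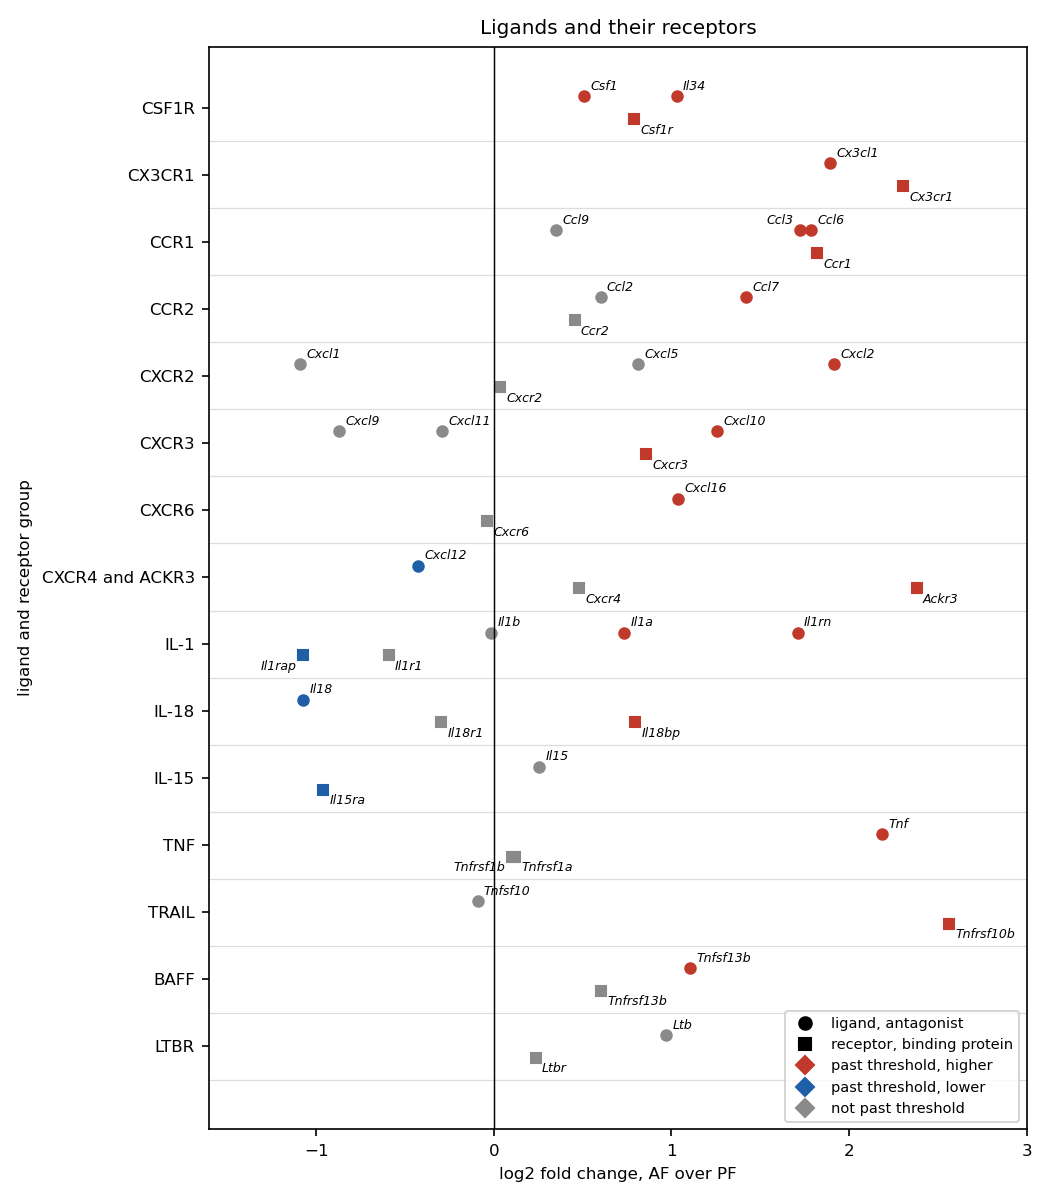
Log2 fold change of AF over PF livers (horizontal axis) for ligands (circles) and their receptors or binding proteins (squares), 1 row for each receptor group. Red and blue mark genes that rose or fell at an adjusted p under 0.05, with the receptor and at least 1 ligand in red for CSF1R, CX3CR1, CCR1 and CXCR3 (Ccl9, Cxcl9 and Cxcl11 in grey) and opposite signs for Il18 and Il18bp.

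Levels can be compared between genes as CPM per kb of exon. On this scale the most abundant members in PF livers were Cxcl1 (67.5), Ccl9 (34.0), Cxcl12 (33.6), Cxcl13 (31.4), Il18 (18.2) and Ccl6 (15.6). In AF livers the order of these levels was Ccl6 (53.8), Ccl9 (43.4), Cxcl1 (31.7), Cxcl12 (25.0), Cxcl13 (13.96) and Il1rn (12.4). Ccl6 ranked 6 in PF and 1 in AF livers. The spread of Cxcl1 and Cxcl13 over single livers was wider than the distance to their neighbours in either order. Tnf, Ccl4 and Cxcl2, among the members with the steepest rises, stayed at low absolute levels, with means of 1.74, 1.36 and 1.26 CPM in AF livers.

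The AF livers also differed among themselves. For the 16 genes that rose, the highest AF value was in replicate 1 for 6, in replicate 3 for 5, in replicate 4 for 3 and in replicate 2 for 2 genes. The lowest AF value was in replicate 5 or 7 for 6 genes each and in replicate 6 for 4. Over all 39 members tested, the highest AF value was in replicate 1 for 12, in replicates 2 and 3 for 8 each, in replicate 7 for 4, in replicate 4 for 3 and in replicates 5 and 6 for 2 each. Recruited macrophage markers summed to 572, 184, 332, 394, 109, 63.2 and 99.8 CPM in AF replicates 1 to 7. They summed to 114 CPM in PF replicate 1 and to between 23.9 and 52.8 CPM in the other PF livers. Of these 6 markers 4 rose (median log2 fold change 2.18), while Ly6c2 (-0.84) and Chil3 (-0.17) did not pass the threshold. Gpnmb had the highest AF mean of them, at 139 CPM against 0.645 CPM in PF livers. Of 5 Kupffer cell markers 4 rose (median 0.73) and Timd4 (-0.01) did not pass, with sums of 573 to 778 CPM in PF and 776 to 2374 CPM in AF livers. Stellate cell and fibroblast markers rose as well (4 of 6, 55.9 to 129 CPM in PF and 115 to 230 CPM in AF livers), as did 4 of 5 bile duct markers. No defining marker of macrophages was at 0 in any library, and the part of these cells in the members' values was not tested. Among the PF livers, replicate 5 held the highest value for 16 of the 39 members tested and replicate 2 the lowest for 18.

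**Figure D4:**
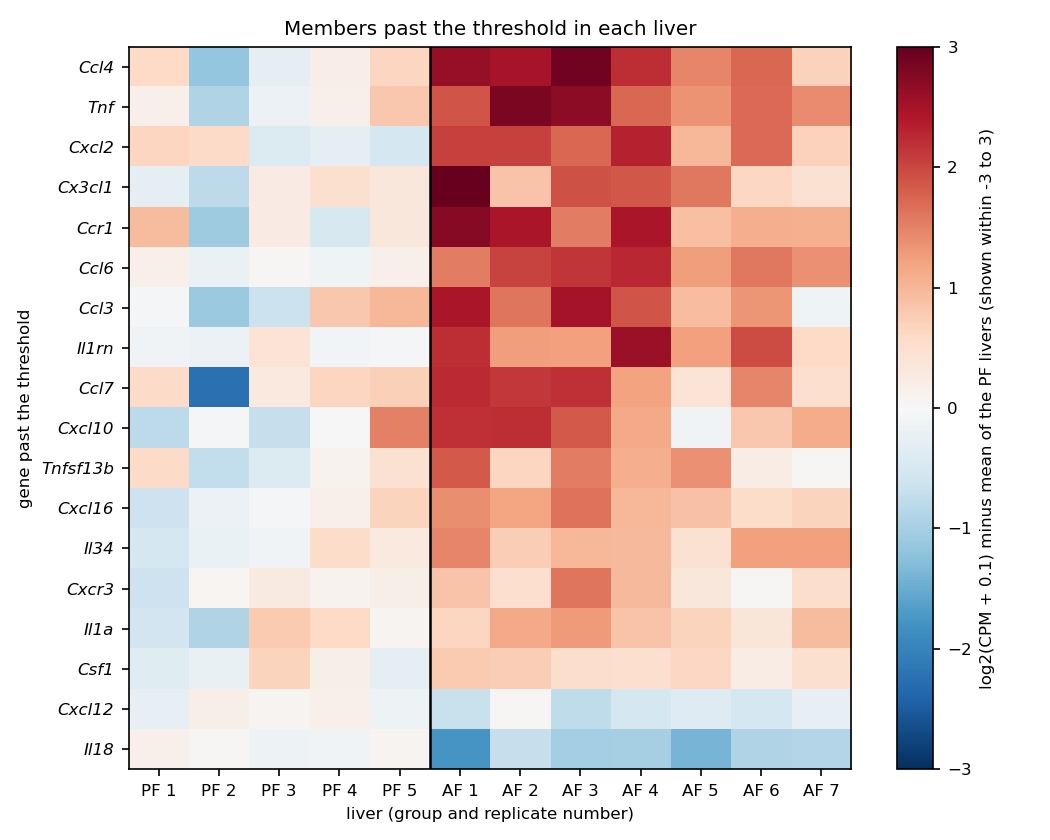
Members past the threshold (rows) in each liver (columns), colored by log2(CPM + 0.1) minus the mean of the PF livers, with colors limited to the range from -3 to 3. The 16 upper rows are red in most AF livers, the highest AF value of each lies among AF replicates 1 to 4, and Il18 is blue in all 7.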

How the data were processed

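The authors sequenced poly(A) RNA of 12 liver samples with a stranded kit, and their processing notes name FastQC 0.10.1, TopHat2 2.0.13, HTSeq 0.10.0 and GRCm38. They deposited raw read counts per Ensembl gene, without normalization, and the annotation and strand setting of the counting are not given in the sources used here, so genes that overlap another gene are uncertain. Columns were assigned by the group and replicate number in their names. GENCODE M21 named 54165 of 54232 IDs, and a symbol with several IDs kept the one with the most counts. The study's own comparison with Cuffdiff2 was not repeated, since it starts from reads. The members, the receptor list and the marker lists were chosen with earlier results of these data known.

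After a filter on low counts (filterByExpr by group) and TMM normalization, counts were tested with edgeR 4.0.16 in R 4.3.3 (quasi-likelihood test of AF against PF, no covariate), with Benjamini-Hochberg adjustment over all 14168 genes tested and a threshold of 0.05. The standard error was derived from the F statistic. Alternatives were RLE size factors, library totals, DESeq2 1.42.0, limma-voom (limma 3.58.1), a looser filter (1 count in at least 1 library) and a stricter one (mean count of 10), the replicate number as a block, and leaving out each of the 12 libraries. Genes under the filter are given as reads with exact binomial intervals. Genes given with each PF liver and the lowest, median and highest AF liver were Ccl2, Tnf, Il1b and Il6, the 12 members with the largest rise past the threshold and the members that fell, with a few more chosen after their values were seen, as were the receptors printed beside ligands, and 1 receptor of the list is not reported here by name. CPM values are counts per TMM-scaled library total, and per kb uses exon length. Neutrophil markers without PF replicate 1 and bile duct markers without Spp1 were added after seeing the data. The steps were tested on simulated counts, with the same dispersion for every gene and known fold changes only in genes above a count limit. These simulations do not show how the fits behave for members with few PF reads or a wide spread. No libraries of a group were alike to within counting noise (lowest chi-square per gene 20.5). Reads carry no molecular identifiers, so intervals and floors cover counting error only.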

Additional observations from a re-analysis of the deposited data

Results flagged for a closer look

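Single livers stood away from the rest of their group for 9 of 78 groups of values, which are the PF and the AF livers of the 39 members tested. About 3.9 such groups are expected by chance. AF replicate 1 had the highest AF level of Cx3cl1 (9.84 CPM), Ccl19 (0.933 CPM) and Cxcl14 (16.4 CPM), each far from the next AF liver. PF replicate 5 had the highest PF level of Cxcl10 (8.82 CPM) and Cxcl13 (105 CPM). PF replicate 1 had the lowest PF level of Cxcr3 (0.246 CPM) and of Il15 (2.02 CPM), where the other PF livers lay close together. The highest PF level of Il1rn was 27.6 CPM in PF replicate 3, and the highest AF level of Ccl22 was 0.846 CPM in AF replicate 2. Of these genes Cx3cl1, Cxcl10, Cxcr3 and Il1rn were among those that rose in AF livers. Cx3cl1 and Il1rn kept their calls when any library was left out, and Cxcl10 and Cxcr3 did not.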

How the results depend on the processing

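Of 19 alternatives, 9 members rose in each (Ccl4, Ccl6, Cxcl2, Cx3cl1, Cxcl16, Ccr1, Tnf, Il1rn and Il34) and Il18 fell in each. Members that rose numbered 13 with RLE, 20 with library totals, 16 with DESeq2, 12 with limma-voom, 14 and 15 with the looser and the stricter filter, and 9 to 18 when a library was left out (10 without PF replicate 1, 9 without PF replicate 2, 10 without AF replicate 1 and 10 without AF replicate 3). Members that fell numbered 1 with library totals and with the filter at 1 count, and 1 to 3 with a library left out (Cxcl12 was lost without PF replicate 2, 3 or 4 or AF replicate 1, 3 or 4). With library totals the median log2 fold change of all genes moved from 0.04 to 0.40, and 6452 genes rose and 939 fell (with 20 of the receptor list higher), so the split of calls depends on the scaling. Leaving out a library gave 2520 to 3574 genes higher, 2119 to 2923 lower, and 12 to 13 receptors higher and 3 to 5 lower.

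The main fit did not treat the replicate numbers as pairs. The deviations of same-numbered livers correlated at -0.08 to 0.11, which cannot show whether the livers were paired by design. With the replicate number as a block 17 members rose and 4 fell, and 3395 and 2939 of all genes. Ccl7 and Cxcl10 missed the threshold there, and Cxcl5, Cxcr4, Ltb, Ccl24 (-1.35) and Cxcl1 (-1.98) passed it.

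Of 734 values of members under alternatives, 613 kept direction and side of the threshold, 74 lost and 16 gained the call, and 31 changed sign, in 8 members that never passed it (lowest edgeR adjusted p among these 31 0.270). With library totals, Ccl5 was 0.30, Ccl25 0.20, Ccl27a 0.0614, Cxcl11 0.0562, Cxcl14 0.43, Tnfsf10 0.27 and Il1b 0.31 on the log2 scale. With limma-voom Ccl5 was 0.10 and Cxcl14 0.29, and with the block Ccl5 was 0.22, Cxcl14 0.37 and Tnfsf10 0.0508. With a library left out, Ccl5 ran from -0.28 to 0.46, Cxcl11 from -0.46 to 0.0730, Cxcl14 from -0.38 to 0.51, Ccr7 from -0.13 to 0.73, Tnfsf10 from -0.34 to 0.0531 and Il1b from -0.21 to 0.32. Il1a missed the threshold with RLE, Tnfsf13b and Ccl7 with limma-voom, and Cxcl12 with the looser filter, and Il33 passed it with library totals (0.76). The cause was not tested. At these depths genes with a few reads per library, such as Il6 and Csf2, are limited by counting error.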
